A study of Mus musculus with 12 samples.

Results

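The genes of cholesterol biosynthesis and sterol regulation were followed in the cortex of aged E4FAD mice, as 26 genes given by name and matched by Ensembl identifier out of 50563 genes in the count table. All 26 were matched to 1 identifier each, and all 26 passed the filter on low counts. They were chosen by their known roles in the pathway. RNA-Seq was done on 12 mice labelled APOE4+/+, 5FAD-/+, with 1 library per mouse. They carry human APOE4 in place of the mouse gene and transgenes with familial Alzheimer's disease mutations, which neurons express from the Thy1 promoter, and every mouse analysed here carried both. The CTRL group held 7 mice given vehicle by gavage (2 at 12 months and 5 at 14 months of age). The DPAn-6 group held 5 mice (2 at 12 months and 3 at 14 months) given docosapentaenoic acid of the omega-6 series. By the study's methods the dose was 700 mg/kg daily for 3 weeks, both groups received the same antioxidants in the vehicle, and each group held both sexes. The labels give no sex for single mice.

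Cholesterol does not cross the blood-brain barrier in useful amounts, so the brain makes its own, with oligodendrocytes needing it for myelin and astrocytes supplying neurons. Synthesis runs from acetyl-CoA through mevalonate and isoprenoids to squalene, which is closed into the first sterol and trimmed to cholesterol. The transcription factor SREBP-2 (Srebf2) turns these genes on when sterols are low. Its escort SCAP carries it to the Golgi apparatus, and the INSIG proteins (Insig1, Insig2) hold SCAP back in the endoplasmic reticulum when sterols are high. Neurons dispose of cholesterol through the 24-hydroxylase Cyp46a1.

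SREBP-2 acts through sterol regulatory elements near the gene start, with the CCAAT-binding factor NF-Y and Sp1 as partners, so the bases before the start are shown for the entry enzyme Hmgcs1, for the 2 genes that differed most between the groups (Insig2 and Lss) and for Mvk, which held the most CCAAT boxes. The sequences are from RefSeq (GRCm38.p6), 5' to 3' on the strand of the gene, and end before the gene as GENCODE M21 draws it. Insig2 has further starts inside the gene, which had no CCAAT in the bases before them and are not shown. Which start was used in the cortex was not tested. Capitals mark CACNCCAC, the core of the classical sterol regulatory element, and CCAAT, each on either strand.
Hmgcs1 (chr13:119690171-119690350, plus strand): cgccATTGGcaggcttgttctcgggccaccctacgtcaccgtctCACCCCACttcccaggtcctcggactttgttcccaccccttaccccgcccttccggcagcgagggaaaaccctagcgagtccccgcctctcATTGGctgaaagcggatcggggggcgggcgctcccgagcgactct
Insig2 (chr1:121332590-121332769, minus strand): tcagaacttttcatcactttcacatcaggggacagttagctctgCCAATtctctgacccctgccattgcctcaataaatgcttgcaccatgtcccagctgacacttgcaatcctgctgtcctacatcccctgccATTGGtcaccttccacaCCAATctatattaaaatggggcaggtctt
Lss (chr10:76531425-76531587, plus strand): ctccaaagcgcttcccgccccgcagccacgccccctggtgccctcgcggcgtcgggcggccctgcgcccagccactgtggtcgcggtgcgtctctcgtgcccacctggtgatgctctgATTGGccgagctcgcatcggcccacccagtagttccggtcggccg
Mvk (chr5:114444089-114444268, plus strand): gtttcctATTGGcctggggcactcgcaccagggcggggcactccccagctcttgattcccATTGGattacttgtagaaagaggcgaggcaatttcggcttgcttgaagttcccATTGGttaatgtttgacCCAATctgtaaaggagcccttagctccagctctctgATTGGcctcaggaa

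In the 250 bases before each start, 22 of the 26 genes had an entry, with 28 starts in all. CCAAT was in 20 of these 28 windows (71.4%), against 33.8% of 32851 windows of all genes and 35.0% of 20150 windows of protein-coding genes. GGGCGG, the core of the Sp1 site, was in 22 (78.6%), against 32.7% and 44.1%. CACNCCAC was in 3 (10.7%; Acat2, Hmgcs1 and Insig1), against 5.29% and 5.35%. None of the motifs contains another, though neighbouring matches can overlap, and starts of 1 gene can share bases. These are matches of letters in a fixed window and were not tested as binding sites. No entry was given for Fdps, Fdft1, Sqle and Stard4.

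Total counts ran from 15208803 to 26520251 per mouse and gave no group difference past the threshold (exact permutation test of the totals, both sides, p = 0.222). CTRL replicate 3 stood apart from the other mice. It was the lowest of the 12 mice for 12 of the 26 genes and the highest for 6, so 69.2% of them had their extreme value there, as had 61.8% of all 15688 genes tested. CTRL replicate 2 held the extreme of 12 of the 26 (46.2%, against 31.6% of all genes), and no other mouse held more than 6. Against the mean of the other CTRL mice, CTRL replicate 3 was lower by 0.98 log2 CPM (CPM being the count scaled to the same total in every mouse) for Tm7sf2, where the others had an SD of 0.15. The same difference was −0.93 for Mvk, −0.65 for Scap and −0.56 for Srebf2, while Fdft1 was higher by 0.62, Ggps1 by 0.60 and Sc5d by 0.54. Without this mouse, 6 of the 26 log2 fold changes between the groups changed sign, and these are given both ways.

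**Figure D1:**
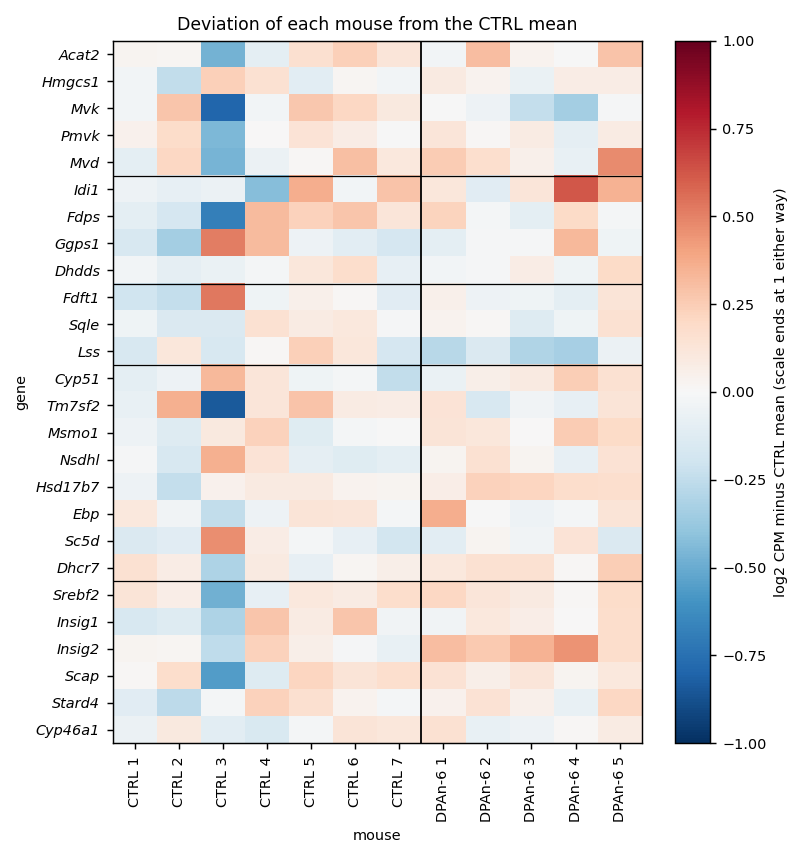
Each line is a gene and each column a mouse, with colour for log2 CPM minus the mean of the 7 CTRL mice. Black lines separate the groups and the roles in the pathway. CTRL replicate 3 shows the lowest values (Tm7sf2, Mvk) and some of the highest (Fdft1, Ggps1), and Insig2 is red in all 5 DPAn-6 mice.

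Among the 26 genes, measured levels per length were highest for the turnover enzyme, the entry enzyme and the main transcription factor. They were lowest for the isomerase Idi1, which had few counts. Levels between genes are given in TPM, counts divided by exon length and scaled to the same sum in every mouse. Cyp46a1 was highest at a mean of 289.9 over the 12 mice (lowest 251.3, highest 317.9). Hmgcs1, which condenses acetyl units to HMG-CoA, followed at 269.7 (204.8 to 340.8) and Srebf2 at 218.2 (164.1 to 241.7). The ranges of Cyp46a1, Hmgcs1 and Srebf2 overlapped, and that of Srebf2 lay above Insig1, the next in order at 85.1. From Insig1 down to Tm7sf2, which reduces a double bond of the sterol ring and had a mean of 14.9, every neighbour in the order overlapped with the next. Of the 25 neighbouring pairs, 22 overlapped. Fdps (farnesyl diphosphate synthase) had 5.36 and Idi1 (isopentenyl diphosphate isomerase) had 0.773, each below the one before without overlap. The median of the 26 genes was 46.3.

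**Figure D2:**
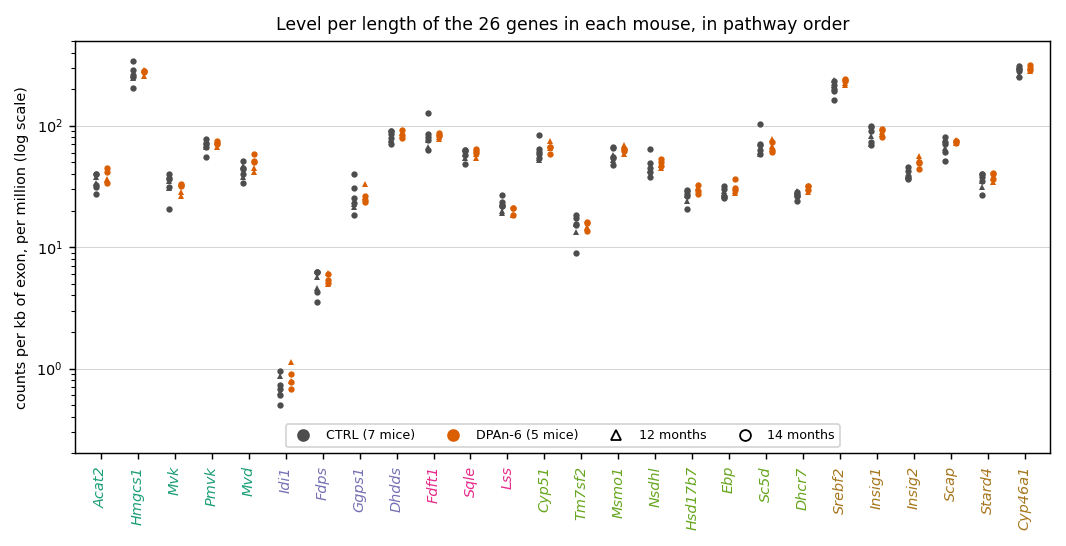
Level per length on a log scale for each of the 26 genes in pathway order, with 1 point per mouse (grey CTRL, orange DPAn-6, triangles 12 months, circles 14 months) and gene names coloured by role. Cyp46a1, Hmgcs1 and Srebf2 lie highest, and Fdps and Idi1 lie below all the others.

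The low values of Idi1 and Fdps come with few reads and with sequence that other genes share. Idi1 had 7 to 19 counts per mouse and Fdps 46 to 127. Of all 50-base words in their annotated transcripts, 25.3% for Idi1 and 26.2% for Fdps also occurred in transcripts of other genes, mostly Gm13502 for Idi1 and Gm43738 for Fdps. A share of this kind was 39.1% for Acat2 (with Acat3) and 26.5% for Fdft1 (with Ctsb on the opposite strand and Gm6781), and 0% for Insig2, Pmvk, Mvd, Nsdhl, Hsd17b7, Ebp, Stard4 and Cyp46a1. For Tm7sf2 it was 9.87%, all with Vps51 on the same strand. The part of shared sequence in the levels of these genes was not tested.

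Between DPAn-6 and CTRL, estimates for the pathway were small, and those farthest from 0 were in opposite directions, Insig2 upward and Lss downward. By edgeR's quasi-likelihood test, 0 of the 26 genes had an adjusted p below 0.05, against 1.55% of the 15688 genes tested. DESeq2, which also called more of all genes than edgeR did, called 1 (Insig2), and limma-voom called 0. In bulk tissue, a change in the cells present and a change in RNA per cell cannot be told apart. At an unadjusted p below 0.05 there were 2 of the 26, Insig2 higher and Lss lower, against 14.5% of all genes. The median log2 fold change of the 26 was 0.03, with 17 positive and 9 negative. That of all genes tested was −0.00, with 48.7% positive. When scaled by library totals in place of TMM, 21 of the 26 were positive and 5 negative. No share over all genes is given for that scaling. The median size of the change without its sign was 0.06 for the 26 and 0.11 for all genes. The median standard error was also smaller for the 26, at 0.09 against 0.12. With log2 CPM tested by exact permutation of the mice, 3 of the 26 (Insig2, Hsd17b7 and Lss) had an unadjusted p below 0.05, against 15.8% of all genes. In 0 of the 26 did the groups fail to overlap, against 3.22% of all genes.

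The 95% intervals from edgeR give, gene by gene, the range of change in the bulk tissue. They do not cover changes within a single cell type. For 25 of the 26 genes the interval lay within a 1.5-fold change in either direction, and for 24 within a 1.4-fold change. The interval of Idi1, the gene with the fewest counts, ran from a log2 fold change of −0.26 to 0.66. For 20 genes the estimate itself was within 1.1-fold of CTRL. The summed level of the 26 was 1701.1 to 1861.5 CPM in CTRL and 1788.9 to 1928.6 in DPAn-6 mice.

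**Figure D3:**
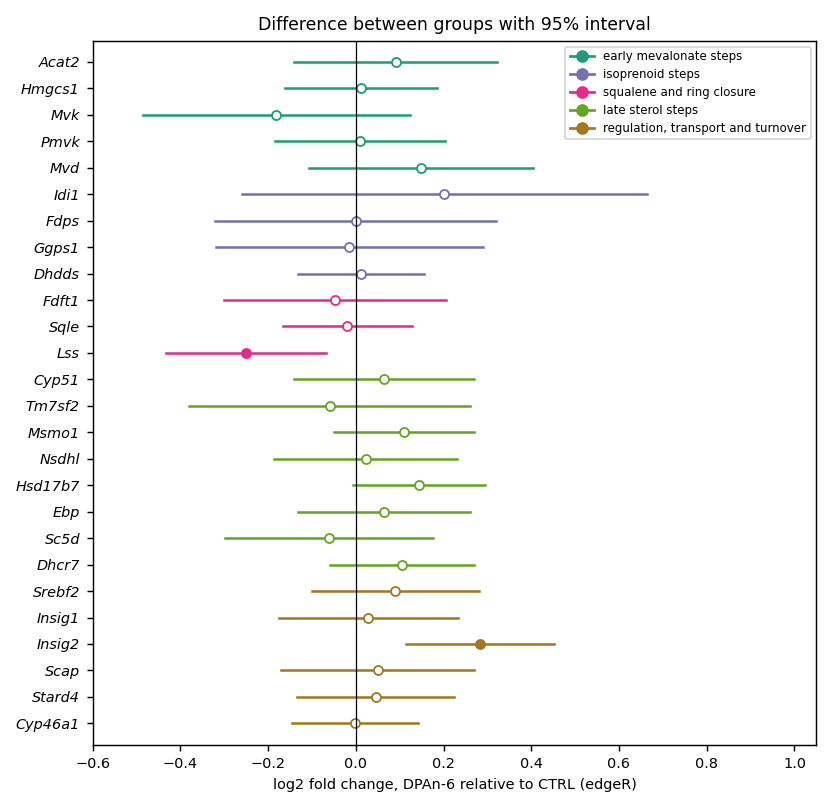
Log2 fold change of DPAn-6 relative to CTRL for each gene in pathway order, with its 95% interval from edgeR and colour for its role. Filled points are Insig2 (0.28) and Lss (−0.25), with an unadjusted p below 0.05, and the interval of every open point crosses 0.

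Insig2 gave the largest fold change of the 26, and it was upward. INSIG-2 retains the SCAP and SREBP complex in the endoplasmic reticulum. In CTRL replicates 1 to 7 its log2 CPM was 4.97, 4.96, 4.68, 5.17, 5.00, 4.93 and 4.87. In DPAn-6 replicates 1 to 5 it was 5.25, 5.20, 5.29, 5.39 and 5.11. All 5 DPAn-6 mice were above the CTRL mean, and the groups overlapped only in that DPAn-6 replicate 5 lay below CTRL replicate 4. The means were 4.94 ± 0.15 (SD, n = 7) and 5.25 ± 0.10 (SD, n = 5). The log2 fold change was 0.28 (standard error 0.08, 95% interval 0.11 to 0.45), a 1.22-fold higher level. The exact permutation p was 0.00505, where the smallest possible is 0.00126, and the adjusted p from edgeR was 0.0954. Insig2 had 394 to 917 counts per mouse, lies on chromosome 1 (121304353 to 121332589, minus strand, GRCm38) and shared no 50-base word with another gene.

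The adjusted p of Insig2 crossed 0.05 with some choices. It was 0.0370 without CTRL replicate 3, the lowest mouse, where the log2 fold change was 0.25 and 6.10% of all genes were called in place of 1.55%. Within the 12-month mice the log2 fold change was 0.42 (2 against 2 mice, adjusted p = 0.0343 by edgeR), and within the 14-month mice it was 0.21 (adjusted p = 0.616). With the oligodendrocyte markers or Ttr as covariate the log2 fold change was 0.31 or 0.26. The unadjusted p by edgeR was 0.0136 and 0.0318, and the adjusted p 0.375 and 0.686.

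Insig1, the paralog that SREBP-2 itself induces, did not pass the test. Its log2 CPM was 5.66, 5.70, 5.52, 6.11, 5.91, 6.11 and 5.79 in CTRL replicates 1 to 7 and 5.79, 5.94, 5.90, 5.84 and 6.003 in DPAn-6 replicates 1 to 5. All DPAn-6 values lay inside the CTRL range. The log2 fold change was 0.03 (95% interval −0.18 to 0.23, adjusted p = 0.933 by edgeR), and −0.01 without CTRL replicate 3.

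Srebf2 likewise did not pass. CTRL replicates 1 to 7 had 8.51, 8.44, 7.90, 8.30, 8.49, 8.46 and 8.55 log2 CPM and DPAn-6 replicates 1 to 5 had 8.59, 8.50, 8.47, 8.39 and 8.56. The low CTRL value is that of replicate 3, without which the log2 fold change was 0.03 in place of 0.09 (95% interval with it, −0.10 to 0.28). Scap, the escort, had a log2 fold change of 0.05 (−0.17 to 0.27), and −0.02 without CTRL replicate 3. Stard4, which carries cholesterol between membranes, had 0.05 (−0.13 to 0.22).

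Cyp46a1, the exit of cholesterol from neurons, did not pass the test either. Its log2 CPM in CTRL replicates 1 to 7 was 7.64, 7.80, 7.60, 7.55, 7.69, 7.84 and 7.82. In DPAn-6 replicates 1 to 5 it was 7.86, 7.63, 7.65, 7.72 and 7.79. The values of the groups interleaved, with a log2 fold change of −0.00 (95% interval −0.15 to 0.14).

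The 3 enzymes that make and close squalene all had estimates below 0 (2 of 3 when scaled by library totals, where Sqle had 0.00, and 2 of 3 without CTRL replicate 3, where Fdft1 had 0.07), and 1 of them, Lss, had an unadjusted p below 0.05. Lss (lanosterol synthase) folds oxidized squalene into lanosterol. CTRL replicates 1 to 7 had 5.57, 5.85, 5.58, 5.74, 5.97, 5.85 and 5.56 log2 CPM. DPAn-6 replicates 1 to 5 had 5.46, 5.59, 5.44, 5.40 and 5.67. Each of the 5 DPAn-6 mice fell short of the mean of CTRL, and 3 of them were below every CTRL mouse. The means were 5.73 ± 0.17 (SD, n = 7) and 5.51 ± 0.12 (SD, n = 5), with a log2 fold change of −0.25 (standard error 0.09, 95% interval −0.43 to −0.07). Exact permutation gave p = 0.0278, while edgeR gave an adjusted p of 0.170, or 0.0515 without CTRL replicate 3. With the mean of 12 oligodendrocyte markers as covariate the log2 fold change was −0.09 (unadjusted p = 0.389 by edgeR), and with Ttr, the main transcript of the choroid plexus, it was −0.11 (unadjusted p = 0.294). Lss lies on chromosome 10 (76531588 to 76557138, plus strand).

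Sqle (squalene epoxidase, a rate-limiting step that sterols control) did not pass. Its log2 CPM was 6.12, 6.02, 6.02, 6.32, 6.24, 6.27 and 6.15 in CTRL replicates 1 to 7 and 6.19, 6.17, 6.04, 6.12 and 6.31 in DPAn-6 replicates 1 to 5. All DPAn-6 values lay inside the CTRL range, and the log2 fold change was −0.02 (95% interval −0.17 to 0.13). Fdft1 (squalene synthase) had −0.05 (−0.30 to 0.21), and 0.07 without CTRL replicate 3.

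**Figure D4:**
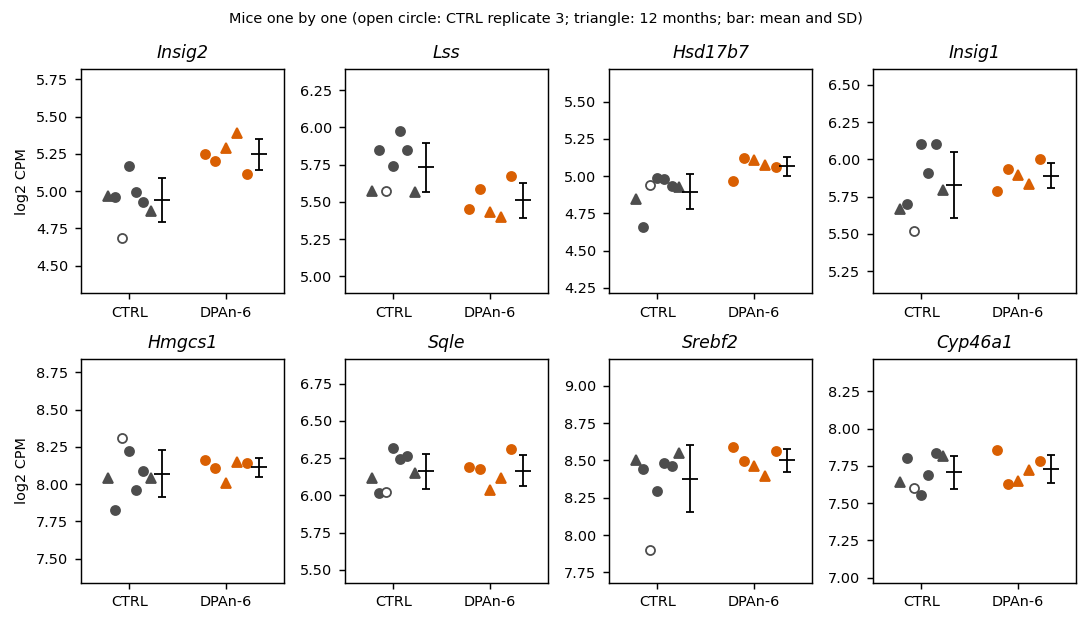
Log2 CPM of 8 genes, with 1 point per mouse, the mean and SD beside each group, triangles for 12-month mice and an open circle for CTRL replicate 3. Every panel spans the same height on the log2 scale. The DPAn-6 mice lie mostly above CTRL for Insig2 (means 5.25 and 4.94) and below for Lss (5.51 and 5.73), and within the CTRL range for Insig1.

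At the entry to the pathway no gene passed. Hmgcs1 had 8.04, 7.83, 8.31, 8.22, 7.96, 8.09 and 8.04 log2 CPM in CTRL replicates 1 to 7 and 8.16, 8.11, 8.01, 8.15 and 8.14 in DPAn-6 replicates 1 to 5. All DPAn-6 values lay between the lowest and the highest CTRL mouse, with a log2 fold change of 0.01 (95% interval −0.16 to 0.18). Acat2 (acetyl-CoA acetyltransferase) had 0.09, Pmvk (phosphomevalonate kinase) 0.01 and Mvd (mevalonate diphosphate decarboxylase) 0.15, with adjusted p from 0.639 to 0.982 by edgeR. Without CTRL replicate 3, Pmvk had −0.05. Mvk (mevalonate kinase) had −0.18 (95% interval −0.49 to 0.12, adjusted p = 0.628 by edgeR). For Mvk, each of the 5 DPAn-6 mice fell short of the mean of CTRL. Without CTRL replicate 3, whose 3.48 log2 CPM was the lowest of all, its log2 fold change was −0.28 and its adjusted p 0.0621.

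The isoprenoid steps feed dolichol, ubiquinone and prenylated proteins as well as sterols. Idi1 had a log2 fold change of 0.20 on few counts, Fdps −0.00 (standard error 0.15), Ggps1 (geranylgeranyl diphosphate synthase) −0.01 and Dhdds (a subunit of the dolichol-making prenyltransferase) 0.01. The intervals of Fdps (−0.32 to 0.32), Ggps1 (−0.32 to 0.29) and Dhdds (−0.13 to 0.16) were set around 0. Without CTRL replicate 3, Ggps1 had 0.09.

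The 8 late enzymes, which turn lanosterol into cholesterol, had 6 estimates above 0 and 2 below (7 and 1 without CTRL replicate 3), and none passed. Hsd17b7 (a 3-ketosteroid reductase) came nearest. Its log2 CPM ran from 4.66 to 4.99 in CTRL, with a median of 4.93, and was 4.96, 5.12, 5.11, 5.07 and 5.06 in the 5 DPAn-6 mice. Only DPAn-6 replicate 1 overlapped with CTRL mice, and the log2 fold change was 0.14 (95% interval −0.01 to 0.30). The exact permutation p was 0.00758, while edgeR gave an unadjusted p of 0.0606 and an adjusted p of 0.371. The exact test uses log2 CPM without TMM scaling, where the difference was 0.17. Msmo1 (a methylsterol oxidase) had 0.11, Dhcr7 (7-dehydrocholesterol reductase) 0.10, Cyp51 (lanosterol 14-demethylase) 0.06, Ebp (a sterol isomerase) 0.06 and Nsdhl (a sterol dehydrogenase) 0.02. Sc5d (sterol C5-desaturase) had −0.06, and 0.04 without CTRL replicate 3, and Tm7sf2 had −0.06. All 5 DPAn-6 mice were above the CTRL mean for Hsd17b7, Msmo1 and Dhcr7.

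Whether the difference depended on age was tested for every gene by an interaction term. By edgeR, 0 of the 26 genes had an adjusted p below 0.05 and 0 had an unadjusted p below 0.05, against 4.26% of all genes at the unadjusted threshold. The lowest p was that of Cyp51 (unadjusted p = 0.0582, adjusted p = 0.905). Its log2 fold change was 0.33 within the 12-month and −0.05 within the 14-month mice.

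Levels were also compared across mice with those of Hmgcs1. Over the 12 mice, 4 of 25 relations with Hmgcs1 had an adjusted permutation p below 0.05. Only genes of the pathway list were compared with Hmgcs1, and no share over all genes is given. Whether such relations were more common in the pathway than elsewhere was not tested. The relations with Msmo1 (r = 0.781, permutation p = 0.00199, adjusted p = 0.0249), Ggps1 (r = 0.813, permutation p = 0.00097, adjusted p = 0.0242) and Nsdhl (r = 0.770, permutation p = 0.00382, adjusted p = 0.0318) were positive. That with Scap was negative (r = −0.732, permutation p = 0.00794, adjusted p = 0.0496). Spearman's rho was 0.797, 0.664, 0.713 and −0.734 for Msmo1, Ggps1, Nsdhl and Scap (adjusted permutation p = 0.078, 0.139, 0.101 and 0.101), so that none passed adjustment by rank. After centring each group on its mean, 7 of 25 had an unadjusted permutation p below 0.05 and 0 an adjusted one. The centred r was 0.829 for Msmo1, 0.816 for Ggps1 and −0.804 for Scap (adjusted permutation p = 0.0532 for each).

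CTRL replicates 2 and 3 were the mice farthest from the Hmgcs1 median. Without both, r was 0.899 for Msmo1, 0.582 for Ggps1, 0.525 for Nsdhl and −0.667 for Scap, and 4 of the 25 changed sign. Without CTRL replicate 3 alone, a choice made after the data were seen, the centred r of 1 relation had an adjusted permutation p below 0.05, Msmo1 (r = 0.871, adjusted p = 0.0250). Sqle, with a centred r of 0.264 over all mice, had 0.758 without it (permutation p = 0.0104, adjusted p = 0.130), and Fdps went from −0.178 to 0.711 (permutation p = 0.0264, adjusted p = 0.22). Mvk, Tm7sf2 and Fdft1, with a centred r of −0.691, −0.687 and 0.707 over all mice, had −0.378, −0.364 and 0.421 without it. The r of Msmo1 with Hmgcs1 was 0.781 to 0.899 in these fits.

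**Figure D5:**
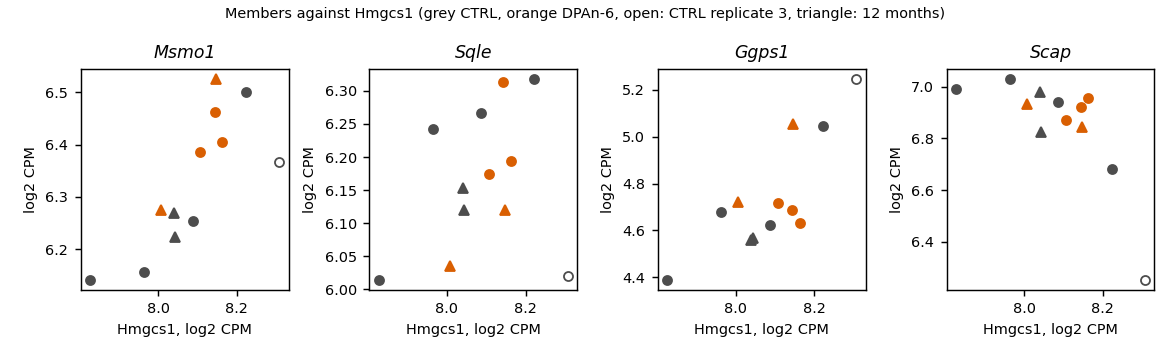
Log2 CPM of Msmo1, Sqle, Ggps1 and Scap (vertical) against Hmgcs1 (horizontal), with 1 point per mouse (grey CTRL, orange DPAn-6, triangles 12 months, open circle CTRL replicate 3). Msmo1 rises with Hmgcs1 over all mice, with a pooled r of 0.781, while CTRL replicate 3 sits at the lower right for Sqle and Scap and at the upper right for Ggps1.

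Another 37 genes of sterol and isoprenoid metabolism were read from the same fit, and 0 had an adjusted p below 0.05. At the unadjusted threshold there were 4, where 14.5% of all genes passed. Of 8 genes of SREBP processing and sterol sensing, 0 passed, with the lowest p in Rnf139 (log2 fold change 0.18) and Rnf145 (0.08), which encode ubiquitin ligases. Of 10 genes of uptake and trafficking, 2 passed and both were lower. They were Lrp1, a lipoprotein receptor (−0.29, adjusted p = 0.183 by edgeR), and Soat1, which esterifies cholesterol (−0.21, adjusted p = 0.293). The median of these 10 was −0.11, with 8 below 0. The 8 remaining synthesis and oxysterol enzymes had a median of −0.04, with 4 above 0 and 4 below. Of 11 isoprenoid users, Pdss1, a subunit of the enzyme for the ubiquinone tail, passed and was lower (−0.23, adjusted p = 0.34), and Rce1, which trims prenylated proteins, had 0.18.

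Markers of cell types were read from the same fit. Of all genes tested by edgeR, 14.5% had an unadjusted and 1.55% an adjusted p below 0.05. Of 12 oligodendrocyte genes, 10 were above 0 and 6 had an unadjusted p below 0.05, with a median log2 fold change of 0.21. Their summed level was 5402.4 to 7154.1 CPM in CTRL and 6367.9 to 7220.9 in DPAn-6. Of 11 astrocyte genes, 9 were below 0 and 4 passed at the unadjusted threshold, with a median of −0.15 (7483.5 to 11438.0 in CTRL and 6720.3 to 8295.3 in DPAn-6). All 9 microglial genes were below 0, with 8 at an unadjusted and 4 at an adjusted p below 0.05 and a median of −0.49 (1166.8 to 1731.8 against 794.6 to 1152.3). Of 7 excitatory neuron genes 6 were above 0 (median 0.04, 8536.1 to 10602.0 against 8779.7 to 9284.0), as were all 6 inhibitory neuron genes (median 0.21, 600.9 to 739.3 against 752.2 to 883.5). At the unadjusted threshold 1 excitatory gene passed, Camk2a, and it was lower (−0.21). For the inhibitory genes, 2 passed and were higher (Slc32a1 and Vip). The 6 endothelial genes had a median of −0.06 (270.1 to 298.4 against 249.3 to 288.6), and 1 passed at the unadjusted threshold and was lower (Flt1). Of 8 choroid plexus genes, 5 passed the filter on low counts. All 5 were lower in DPAn-6 with 4 at an unadjusted p below 0.05 (13.6 to 1689.1 against 9.08 to 26.1 for the 8), and Ttr was highest in CTRL replicates 2, 3 and 5. No marker of any list was at 0 in all mice. The 2 covariates used for Insig2 and Lss themselves had different group means. The oligodendrocyte markers had a mean of 7.15 log2 CPM in CTRL and 7.42 in DPAn-6, and Ttr had 6.22 and 2.19. Fits with these covariates therefore cannot tell cell composition and treatment apart. The part of these cell types in the differences of Insig2 and Lss was not tested.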

How the data were processed

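The 26 genes and the lists were chosen with earlier results of these data known. The authors prepared poly(A) libraries (KAPA mRNA), aligned reads with STAR 2.5.3a to GRCm38 with Ensembl annotation and deposited raw counts per gene from STAR, with no normalization; the strand setting is not given in the sources used here. Dose and duration are from the study's methods. Log2 CPM was computed from deposited counts plus 0.5 over the total on genes, and levels per length from union exon length in GENCODE M21, which matched 50339 of 50563 identifiers. Of these genes, 30214 had a count. Total counts ran from 15208803 to 26520251 per mouse.

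Groups followed the labels. The test for differences was that of edgeR 4.0.16 under R 4.3.3 (TMM, filterByExpr by group, glmQLFit and glmQLFTest, no covariate, Benjamini-Hochberg over all 15688 genes tested); 95% intervals come from its standard errors, computed as the log2 fold change over the root of F, or from the fitted weights where F is near 0. The study's limma-voom (limma 3.58.1) and DESeq2 1.42.0 were alternatives. For each gene the difference in mean log2 CPM was also tested by exact permutation, two-sided, over all 792 assignments of mice. Relations with Hmgcs1 were tested with 100000 resamples (Python 3.11.15, numpy 2.4.6, scipy 1.17.1). The labels do not say that mice of a group came from separate litters, and p-values measure the spread between these mice. The edgeR and limma-voom tests were checked on 3 sets of simulated counts with a log2 change of 1 in 200 genes. They recovered 89.8% and 89% of these, and 5.03% and 4.73% of their calls were false. Changes as small as those of the 26 genes were not simulated, nor was an outlying mouse. All 26 genes are named; values in every mouse are given for those with an unadjusted p below 0.05 and for Hmgcs1, Sqle, Srebf2, Insig1 and Cyp46a1, and in part for Hsd17b7, which was added after its values were seen. Each other sterol list gives up to 2 genes with the lowest p, except that some genes are not reported here.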

Additional observations from a re-analysis of the deposited data

Results flagged for a closer look

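Single mice were far from the others of their group for 8 of 52 combinations of gene and group, by the gap of the highest or lowest mouse to its nearest neighbour relative to the range of the group. Chance flags about 1 group in 20 when groups are independent, but the 52 combinations come from the same 12 mice. No share of flags over all genes is given, and whether the flags were particular to the pathway was not tested. CTRL replicate 3 accounted for 6 of the 8, and it held the extreme value of 61.8% of all genes tested. It was the lowest CTRL mouse at 3.48 log2 CPM for Mvk, 4.25 for Pmvk, 2.998 for Tm7sf2 and 7.90 for Srebf2, and the highest at 6.78 for Fdft1 and 6.66 for Sc5d. CTRL replicate 2 was the lowest CTRL mouse for Hsd17b7 at 4.66, and DPAn-6 replicate 4 was the highest DPAn-6 mouse for Ggps1 at 5.05.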

How the results depend on the processing

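Insig2 was higher in DPAn-6 and Lss lower under all 25 alternatives, with log2 fold changes from 0.21 to 0.42 and from −0.28 to −0.09. The count of the 26 genes with an adjusted p below 0.05, which was 0, was 1 (Insig2) by DESeq2 and in the 12-month mice only, and ranged from 0 to 1 with each mouse left out (1 without CTRL replicate 3). The adjusted p of Insig2 ranged from 0.0197 (DESeq2) to 0.686 (Ttr as covariate). The count at an unadjusted p below 0.05, which was 2, was 1 with the oligodendrocyte markers or Ttr as covariate and in the 14-month mice only, 5 in the 12-month mice only, and 2 to 4 with each mouse left out (highest without CTRL replicate 3). For the 37 other sterol genes the unadjusted count of 4 was 1 with either covariate, 0 in the 14-month and 10 in the 12-month mice only, and 2 to 9 with each mouse left out, lowest without DPAn-6 replicate 3, 4 or 5 and highest without CTRL replicate 3. Over all genes, 243 with an adjusted p below 0.05 became 696 by DESeq2, 30 with the oligodendrocyte markers and 17 with Ttr as covariate, 9 in the 14-month and 709 in the 12-month mice only, and 64 to 953 with each mouse left out (without DPAn-6 replicate 3 and without CTRL replicate 3). No share of all genes at the unadjusted threshold is given for these alternatives. The unadjusted counts of the 26 and of the 37 genes can therefore not be compared with one. Whether their rise or fall was particular to the pathway was not tested. Relations with Hmgcs1 after centring, with 0 passing adjustment, gave 1 by Spearman's rho and 1 without CTRL replicate 3, each added once the data had been seen. The cause was not tested. Among the members, the sign of the log2 fold change differed between the fits for 19 of 26. Insig2 and Lss, the 2 genes with estimates farthest from 0, were not among them. No share of all genes with such a change of sign is given.

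Replicate numbers 1 to 5 occur in both groups, but same-numbered mice did not deviate together in all pairs (correlations 0.0885, 0.00917, −0.125, 0.226 and −0.0746). With the number as a replicate block, 0 members had an adjusted and 2 an unadjusted p below 0.05, 2 of the 37 other sterol genes had an unadjusted p below 0.05, and 79 genes overall had an adjusted one. Counts of 7 to 19 reads limit what can be said of Idi1, whose interval was the widest.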
